A study of Mus musculus with 36 samples.

Results

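Eosinophils sorted from mouse bone marrow were compared with eosinophils sorted from blood, to see which genes differ between cells in the tissue where eosinophils are made and cells already released from it. The comparison used 7 of the 36 samples of the series, 3 from bone marrow and 4 from blood, and took in every gene of the deposited tissue table. All 7 came from wildtype mice of the strain C57BL/6, 8 to 12 weeks old, kept at steady state, and each sample pooled male and female animals. Each is a bulk full-length Smart-seq2 library of total eosinophils, and the other 17 libraries of the table, from spleen, lung, skin, colon and small intestine of the same kind of mouse, entered only the estimate of the spread and a side-by-side look at spleen. The labels do not say that libraries of a tissue came from separate animals or pools, so a p-value speaks only for variation among these 7 and the other libraries of the fit, part of which may be technical.

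Eosinophils develop in bone marrow from granulocyte progenitors under interleukin 5, IL-3 and GM-CSF, with the transcription factors GATA1, C/EBPα, C/EBPε and PU.1. Precursors divide while they make the basic proteins, peroxidase and ribonucleases of the eosinophil granule, load them into vesicles, stop dividing and leave for the blood through the marrow sinusoids, a step helped by eotaxin acting on CCR3. Blood eosinophils are non-dividing cells that carry their granule proteins ready made and wait to be recruited into tissue.

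Values are TPM, which scale the transcripts of each library to a common total, and stand in the order of the library numbers, bone marrow 1 to 3 and then blood 1 to 4. A change is the difference of mean log2(TPM + 1) between bone marrow and blood after the difference of the median gene, 0.06, was taken off, so that the median over all 9806 genes tested is 0. A gene is called where limma's test of its difference against 0, before the median was taken off, gave p under 0.05 after Benjamini-Hochberg adjustment over all tested genes. By that rule 1896 genes (19.3%) were higher in bone marrow and 1497 (15.3%) higher in blood, 34.6% in all, and these shares are the background for every count that follows. After quantile normalization the counts were 1735 and 2204, so that the part of all calls that was higher in bone marrow went from 55.9% to 44%. Because TPM is a share, a few abundant genes lower the others. All genes of the granule protein, neutrophil and erythroid lists, which hold the most abundant gene of each tissue, were therefore taken out in 1 alternative. With these lists taken out before rescaling, the median gene's difference moved by 0.13, and with quantile normalization by -0.21. In bulk libraries, fewer cells of a kind and less RNA of a gene in each cell cannot be told apart.

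The libraries carried the label's markers and also those of other cells. Ccr3, the eotaxin receptor, was at 274, 289 and 369 TPM in bone marrow and 1120.2, 1204, 1232 and 1225 TPM in blood. Siglecf, a sialic acid binding lectin used to sort eosinophils, was at 160.5, 149.8 and 141 TPM in bone marrow and 271, 217, 185 and 221 TPM in blood. Both were present in all 7 libraries, as were Il5ra and Gata1, while transcripts of the granule proteins Prg2 and Epx were abundant in bone marrow and near the bottom of the scale in blood. The deposited values summed to between 821869 and 867493 TPM a library, and 9297 ± 42.8 genes (SD, n = 3) reached 1 TPM in bone marrow against 8601 ± 44.1 (SD, n = 4) in blood. Read depth is unknown, since TPM keeps none. Log2 values correlated across genes at 0.971 to 0.973 within bone marrow, 0.949 to 0.955 within blood and 0.805 to 0.823 between them.

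Of 27 tested markers of neutrophils and their precursors, 24 were higher in bone marrow and 2, Retnlg and Mmp9, in blood. The whole list made up 8.69%, 9.04% and 9.92% in bone marrow and 7.37%, 7.54%, 7.51% and 7.93% in blood of each library's TPM. Most of the blood share was Retnlg, which was high in both tissues and higher in blood. Leaving out Retnlg, the list made up 6.64%, 7.17% and 7.67% in bone marrow and 0.393%, 0.413%, 0.389% and 0.371% in blood. The groups did not overlap with or without Retnlg. Elane, the elastase of primary granules, was at 5705, 7078 and 8373 TPM in bone marrow and 0, 1.62, 1.52 and 2.51 TPM in blood. The haemoglobin genes took 2.12%, 0.907% and 1.66% in bone marrow and 11.8%, 7.03%, 4.75% and 13.7% in blood, again without overlap. Of 12 erythroid markers 1 was called, Car1, which was higher in bone marrow. By limma 0 were higher in blood, 3 at an unadjusted p under 0.05, and 7 when only these 7 libraries were fitted. Of 16 monocyte and macrophage markers 10 were higher in bone marrow and 3 in blood, Csf1r among the latter. C1qa and C1qb, genes of macrophages, were listed at 0 in all 4 blood libraries. The list took 0.591%, 0.566% and 0.537% in bone marrow and 0.0376%, 0.0514%, 0.0316% and 0.0392% in blood. Among 11 basophil and mast cell markers 5 were higher in bone marrow and 2 in blood. The list took 0.0345%, 0.0476% and 0.0385% in bone marrow and 0.0587%, 0.0644%, 0.0703% and 0.0575% in blood, so its summed share was higher in blood without overlap. Most of that blood share was Il4, a cytokine also stored by eosinophils, whose values are given further on. The rest of the list's share, without Il4, was higher in bone marrow. Mcpt8, a basophil protease, was at 11.4, 92.7 and 14.2 TPM in bone marrow and 0, 0, 0 and 0 TPM in blood. The number of genes at 1 TPM or more and 8 shares, those of the neutrophil list with and without Retnlg, the erythroid, haemoglobin, granule protein, immediate early, S phase and mitosis genes, were compared by exact two-sided permutation tests, and each of the 9 gave p = 0.0571 (0.0571 after Benjamini-Hochberg adjustment), the smallest that 3 against 4 libraries allow, so 0.05 could not be reached. The part of these cells in the differences that follow was not tested.

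**Figure D1:**
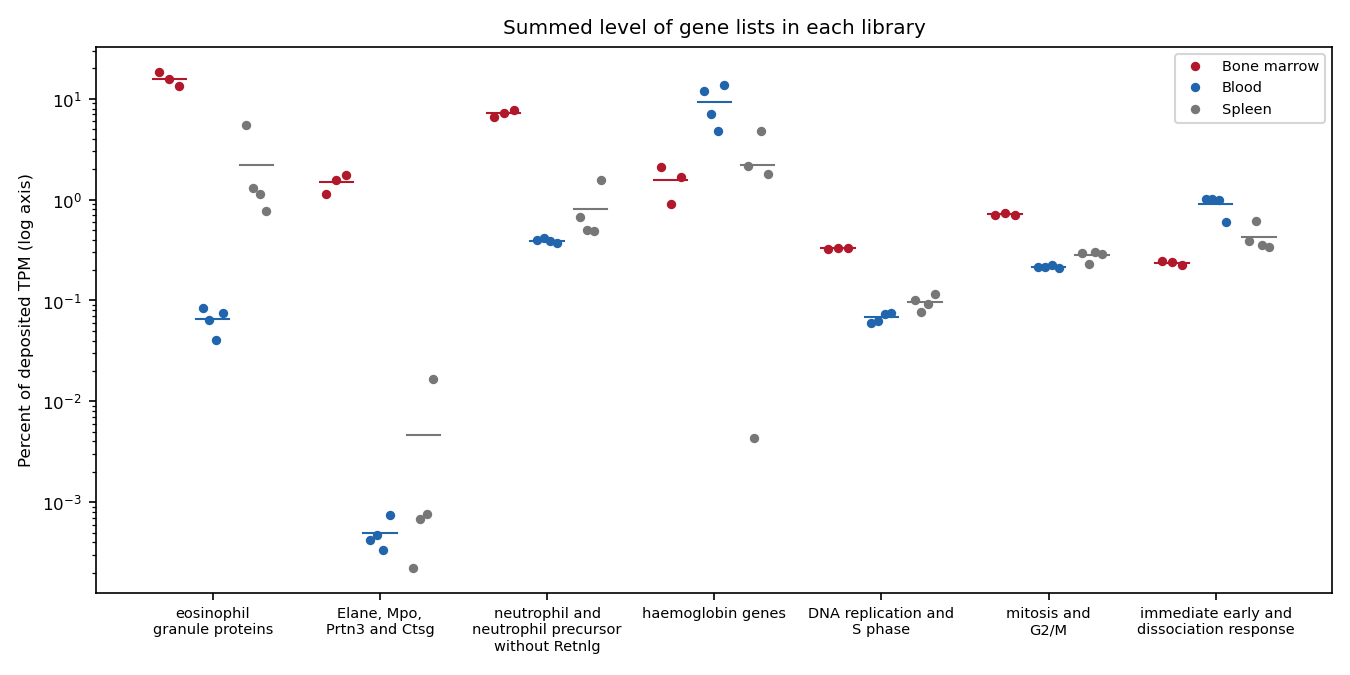
The vertical axis gives the percent of a library's deposited TPM held by each gene list, on a log axis, with 1 point for each bone marrow (red), blood (blue) and spleen (grey) library and a bar at each group's mean. The granule protein genes held between 13.3 and 18.5% in bone marrow and between 0.041 and 0.0845% in blood, the neutrophil markers without Retnlg were higher in every bone marrow library, and the haemoglobin genes were higher in every blood library.

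Promoters of 5 genes that differed between the tissues are shown to place short motifs in them, 3 of cell cycle genes and 2 of granule protein genes. Each run is the 250 bases before the RefSeq start, on mouse build GRCm38.p6, 5′ to 3′ on the gene's strand, with every match to the 6 motifs searched in capitals. The promoters lie at chr8:75109259-75109508 on the + strand for Mcm5, chr10:69352913-69353162 on the - strand for Cdk1, chr9:70421555-70421804 on the - strand for Ccnb2, chr11:87875537-87875786 on the - strand for Epx and chr2:84987965-84988214 on the + strand for Prg3.
Mcm5: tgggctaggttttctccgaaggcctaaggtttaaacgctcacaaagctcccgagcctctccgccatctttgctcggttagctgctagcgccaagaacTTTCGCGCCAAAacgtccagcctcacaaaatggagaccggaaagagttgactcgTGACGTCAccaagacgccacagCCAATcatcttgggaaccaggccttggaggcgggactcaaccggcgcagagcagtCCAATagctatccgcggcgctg
Cdk1: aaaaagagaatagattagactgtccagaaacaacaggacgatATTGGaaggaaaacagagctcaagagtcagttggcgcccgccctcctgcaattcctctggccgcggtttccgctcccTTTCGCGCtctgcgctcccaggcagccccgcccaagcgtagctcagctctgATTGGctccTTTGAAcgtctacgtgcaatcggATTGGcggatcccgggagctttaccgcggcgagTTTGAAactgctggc
Ccnb2: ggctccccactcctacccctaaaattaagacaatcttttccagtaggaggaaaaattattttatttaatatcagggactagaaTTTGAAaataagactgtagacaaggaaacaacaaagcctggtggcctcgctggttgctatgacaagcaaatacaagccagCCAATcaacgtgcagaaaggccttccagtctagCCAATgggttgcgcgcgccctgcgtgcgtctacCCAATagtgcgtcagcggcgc
Epx: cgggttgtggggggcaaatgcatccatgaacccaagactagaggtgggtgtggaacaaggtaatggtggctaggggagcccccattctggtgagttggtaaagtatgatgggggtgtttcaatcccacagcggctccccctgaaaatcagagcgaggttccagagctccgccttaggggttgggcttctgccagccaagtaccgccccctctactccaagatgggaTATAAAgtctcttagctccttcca
Prg3: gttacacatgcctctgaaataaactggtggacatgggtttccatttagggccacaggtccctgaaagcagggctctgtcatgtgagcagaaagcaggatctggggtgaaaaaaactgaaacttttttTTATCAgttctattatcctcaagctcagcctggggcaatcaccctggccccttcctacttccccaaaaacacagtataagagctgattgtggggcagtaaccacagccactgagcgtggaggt

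Mcm5, a subunit of the replicative helicase, held overlapping E2F sites, TTTCGCGC starting 153 bases before the start and GCGCCAAA starting 149 bases before it, a CCAAT box at 77 and another at 22 bases, and TGACGTCA at 99 bases. Cdk1, the mitotic kinase, held TTTGAA at 71 and 15 bases, the reversed CCAAT box ATTGG at 208, 80 and 48 bases, and TTTCGCGC at 131 bases. Ccnb2, a mitotic cyclin, held CCAAT at 87, 54 and 21 bases and TTTGAA at 167 bases. Epx, eosinophil peroxidase, held TATAAA at 24 bases and none of the other motifs, and Prg3, the second major basic protein, held the GATA site TTATCA at 123 bases. Over the 7962 tested genes with a promoter in the RefSeq table, TTTGAA on either strand was present in 10.6% of these 250-base windows, against 16% of 50 S phase genes and 37.7% of 61 mitosis genes. The E2F sites TTTGGCGC, TTTCCCGC and TTTCGCGC, on either strand, were in 3.28% of all windows, 22% of S phase windows and 6.56% of mitosis windows. CCAAT was in 37.1%, 64% and 72.1%. Among the 6 granule protein windows CCAAT was in 4, a share like that of the cell cycle lists, TTTGAA in 1 and an E2F site in 0. The GATA sites AGATAA and TGATAA were in 9.04% of all windows and in 1 of the 6 granule protein windows, that of Prg3. These are matches of letters, given as a description.

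DNA replication genes were higher in bone marrow almost throughout. Of 63 genes of replication and S phase, 59 were higher in bone marrow, against a background of 19.3%, and 4 were not called. By limma 0 were higher in blood, and 0 at an unadjusted p under 0.05, with a median change of 3.33. Their summed share was 0.323%, 0.331% and 0.334% in bone marrow and 0.0602%, 0.063%, 0.0733% and 0.075% in blood. Rrm2, the regulated subunit of ribonucleotide reductase, which makes the nucleotides for DNA, was at 120.0, 111 and 128 TPM in bone marrow and 0.84, 0.41, 0 and 2.31 TPM in blood. That is a change of 6.08 ± 0.62 (SE, limma adjusted p = 1.95e-08), with all 3 bone marrow libraries far above all 4 blood libraries. Mcm5 was at 90.4, 90.6 and 89.8 TPM in bone marrow and 0, 1.53, 2.58 and 0 TPM in blood, a change of 5.66 ± 0.63 (adjusted p = 7.59e-08). Its values were nearly the same in the 3 bone marrow libraries and listed at 0 in blood 1 and 4. Tyms, thymidylate synthase, changed by 5.34 ± 0.61 (adjusted p = 1.34e-07) and Asf1b, a chaperone that hands histones to new DNA, by 5.84 ± 0.55 (adjusted p = 5.56e-09). Pcna, the sliding clamp of DNA polymerase, stood out for its level in blood: it was at 182, 127 and 140.3 TPM in bone marrow and 49.7, 26.5, 42.3 and 38.3 TPM in blood. It was still higher in bone marrow, by 1.86 ± 0.27 (adjusted p = 4.05e-06), with no overlap. Gins2 and Rfc2, parts of the helicase and of the clamp loader, were at changes of -0.06 and -0.42 and were not called.

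Mitosis genes behaved alike, with 71 of 76 higher in bone marrow, 2 higher in blood, 3 not called and a median change of 2.85. Their summed share was 0.697%, 0.741% and 0.711% in bone marrow and 0.213%, 0.215%, 0.224% and 0.208% in blood. Stmn1, a microtubule destabilizer of dividing cells, was at 325, 304 and 337 TPM in bone marrow and 0, 1.96, 0.46 and 0 TPM in blood. Its change of 7.75 ± 0.89 (adjusted p = 1.37e-07) was the largest of the list. Birc5, survivin, a part of the chromosomal passenger complex, was at 100.1, 124 and 115 TPM in bone marrow and 0.37, 0, 0.12 and 0 TPM in blood, a change of 6.61 ± 0.61 (adjusted p = 4.04e-09). Ccnb2 was at 82.6, 86.9 and 68.2 TPM in bone marrow and 0, 0.31, 0 and 0.28 TPM in blood, a change of 6.07 ± 0.44 (adjusted p = 8.99e-11). Cdk1 was at 99.8, 82.1 and 109 TPM in bone marrow and 0.06, 6.93, 0.09 and 0 TPM in blood, a change of 5.75 ± 0.94 (adjusted p = 2.31e-05). Blood 2 stood above the other blood libraries for Cdk1 and still lay under every bone marrow library. Mki67, the proliferation antigen Ki-67, was at 17.6, 19.9 and 18 TPM in bone marrow and 4.92, 2.78, 4.96 and 2.49 TPM in blood. Its change of 2.01 ± 0.40 (adjusted p = 2.36e-04) was smaller than those of the cyclins, and all blood libraries kept a few TPM. Of the list, 12 genes, Cdca3, Pbk, Aurkb and Ccnb1 among them, were listed at 0 in all 4 blood libraries and have no fold. Ccnb1, the main mitotic cyclin, was at 29.98, 33.5 and 23.5 TPM in bone marrow.

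Pttg1 and Tmpo were the 2 mitosis genes higher in blood. Pttg1, securin, which holds the cohesin protease inactive until anaphase, was at 48.2, 55.9 and 57.7 TPM in bone marrow and 217, 194, 184 and 216 TPM in blood. All 4 blood libraries were over 3 times the highest bone marrow library, a difference of 1.95 ± 0.17 (adjusted p = 4.47e-09) in favour of blood. Tmpo, a protein of the inner nuclear membrane, was 1.17 ± 0.29 (adjusted p = 0.0044) higher in blood. Neutrophil precursor transcripts were higher in the same bone marrow libraries as all of these cell cycle genes, with the shares already given, and their part in the cell cycle counts was not tested.

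Replication-dependent histones, whose RNA is made in S phase, gave a mixed count, with 6 of 12 higher in bone marrow and 3 higher in blood. H3c11 was at 125, 88.5 and 83.4 TPM in bone marrow and 1.38, 2.15, 2.57 and 2.31 TPM in blood, a change of 4.94 ± 0.90 (adjusted p = 9.09e-05). H1f2 was at 19.3, 17.1 and 23.7 TPM in bone marrow and 37.4, 33.3, 56.1 and 37.5 TPM in blood, which is 1.05 ± 0.27 (adjusted p = 0.00498) higher in blood. Most such RNAs lack a poly(A) tail, so a poly(A)-primed library sees few of them, and the near-identical copies of the family share reads.

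Genes that hold cells out of the cycle had more members higher in blood than in bone marrow. Of 27 tested, 13 were higher in blood, against a background of 15.3%, and 2 in bone marrow, with a median change of -0.76. Cdkn1b, the inhibitor p27 of cyclin-dependent kinases, was at 32.9, 24.1 and 34.3 TPM in bone marrow and 152, 146, 169.8 and 106 TPM in blood. Every blood library exceeded every bone marrow library, by 2.26 ± 0.30 (adjusted p = 2.04e-06). Btg1, an antiproliferative deadenylase cofactor, was at 57.98, 37.1 and 51.8 TPM in bone marrow and 217, 185, 208 and 161 TPM in blood, which is 2.03 ± 0.20 (adjusted p = 1.95e-08) higher in blood. Klf2, a Krüppel-like factor tied to quiescence of lymphocytes and monocytes and a gene of chr8:72319033-72321656, was at 16.6, 18.4 and 22.7 TPM in bone marrow and 529, 669, 739.6 and 319 TPM in blood. Its difference of 4.81 ± 0.43 (adjusted p = 4.34e-09) was the second largest of all genes higher in blood. Blood 4 had the lowest Klf2 of the blood libraries and still lay far above every bone marrow library. Of the pocket proteins, Rbl2 was higher in blood by 0.76 ± 0.24 (adjusted p = 0.0265). This call was lost without bone marrow 1, bone marrow 3 or blood 3 or with the granule, neutrophil and erythroid lists taken out (adjusted p = 0.0673 to 0.1). Rb1 was not called, at -0.80, and Rbl1 was higher in bone marrow by 2.06 ± 0.41 (adjusted p = 2.17e-04).

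**Figure D2:**
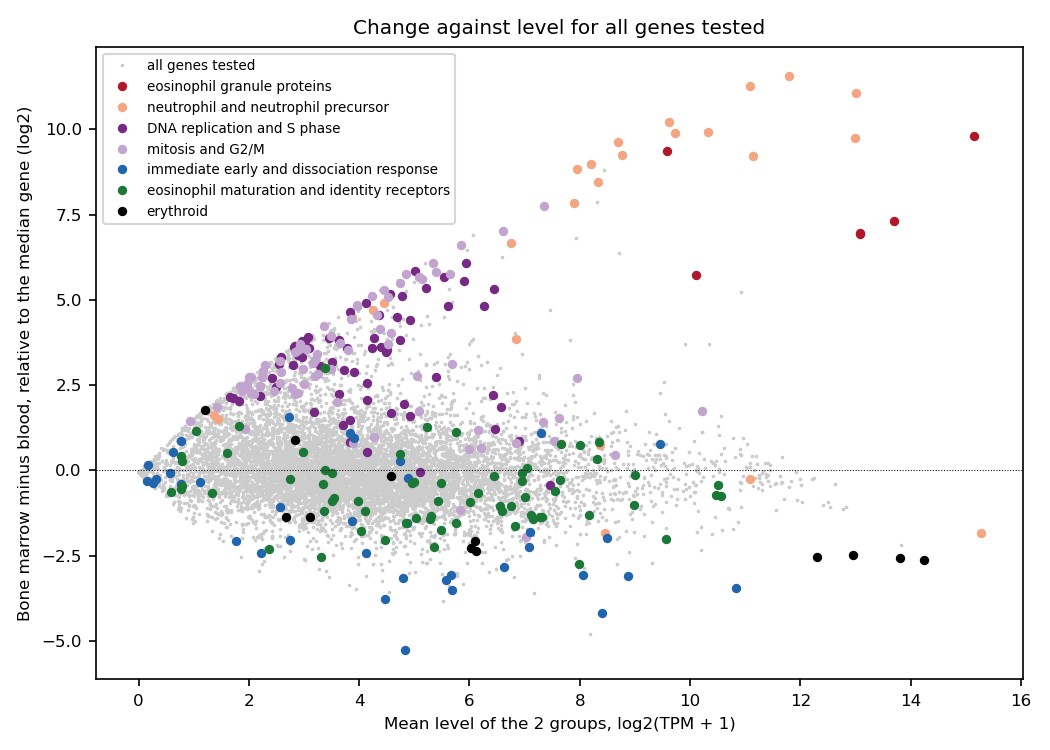
Each point is 1 of the 9806 tested genes, with the mean level of the 2 groups on the horizontal axis in log2(TPM + 1) and the change, bone marrow minus blood, relative to the median gene on the vertical axis in log2. The granule protein genes all lie above 0, as do nearly all S phase and mitosis genes, and the immediate early genes lie mostly below it.

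Granule protein genes took a large share of the transcripts in bone marrow. All 7 tested members were higher there, with a median change of 6.96, and they took 18.5%, 15.8% and 13.3% in bone marrow and 0.0845%, 0.0641%, 0.041% and 0.0745% in blood. Prg2, major basic protein, the crystalline core of the eosinophil granule and a gene of chr2:84980461-84983632 on the + strand, was at 84507, 72185 and 60288 TPM in bone marrow and 63.9, 81.7, 63.5 and 103 TPM in blood. Its change was 9.79 ± 0.44 (adjusted p = 1.61e-14), and the mean in bone marrow was 927 times the mean in blood, where the gene was still detected in every library. Prg3, which lies next to it at chr2:84988215-84993886 on the same strand, was at 2505, 2197 and 1783 TPM in bone marrow and 52.4, 47.7, 22.7 and 35.3 TPM in blood, a change of 5.73 ± 0.57 (adjusted p = 1.55e-08). Epx, eosinophil peroxidase, a haem enzyme that makes hypobromous acid, lies at chr11:87864000-87875536 on the - strand and was at 1789.5, 1607 and 1164 TPM in bone marrow and 1.82, 2.13, 0.31 and 0.89 TPM in blood. Its change was 9.38 ± 0.52 (adjusted p = 6.61e-13), and its blood values were at the bottom of the scale.

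The Ear genes code for eosinophil-associated ribonucleases, and all lie on chromosome 14. Ear1, at chr14:43818765-43875517, was at 31430.4, 26210.2 and 21824 TPM in bone marrow and 259.8, 134, 74.6 and 225 TPM in blood, a change of 7.33 ± 0.81 (adjusted p = 7.80e-08). Ear2, at chr14:44102654-44103534, was at 20013, 16262 and 15049 TPM in bone marrow and 169, 169.9, 85.5 and 121 TPM in blood, a change of 6.94 ± 0.77 (adjusted p = 7.80e-08). Ear6, at chr14:51853699-51854643, was at 20288, 16412 and 14548 TPM in bone marrow and 172, 112, 90.04 and 159.7 TPM in blood, a change of 6.96 ± 0.44 (adjusted p = 5.91e-12). Ear10 was at 10.3, 16.1 and 10.7 TPM in bone marrow and was listed at 0 in all blood libraries. The longest transcripts of Ear1 and Ear2 are 96.2% identical and those of Ear1 and Ear6 83.3%, so reads can be assigned to the wrong copy and the single Ear values are uncertain, while Prg2 and Prg3 are 61.1% identical. Bone marrow 1 had the highest and bone marrow 3 the lowest value for Prg2, Prg3, Epx, Ear1, Ear2 and Ear6. Elane and other neutrophil markers, Mpo, Prtn3 and S100a8 among them, ran in the opposite order. Not all neutrophil markers did so. Ngp ran in the order of Prg2, at 5116, 4353 and 4092 TPM in bone marrow, and Camp and Fcnb followed neither order.

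**Figure D3:**
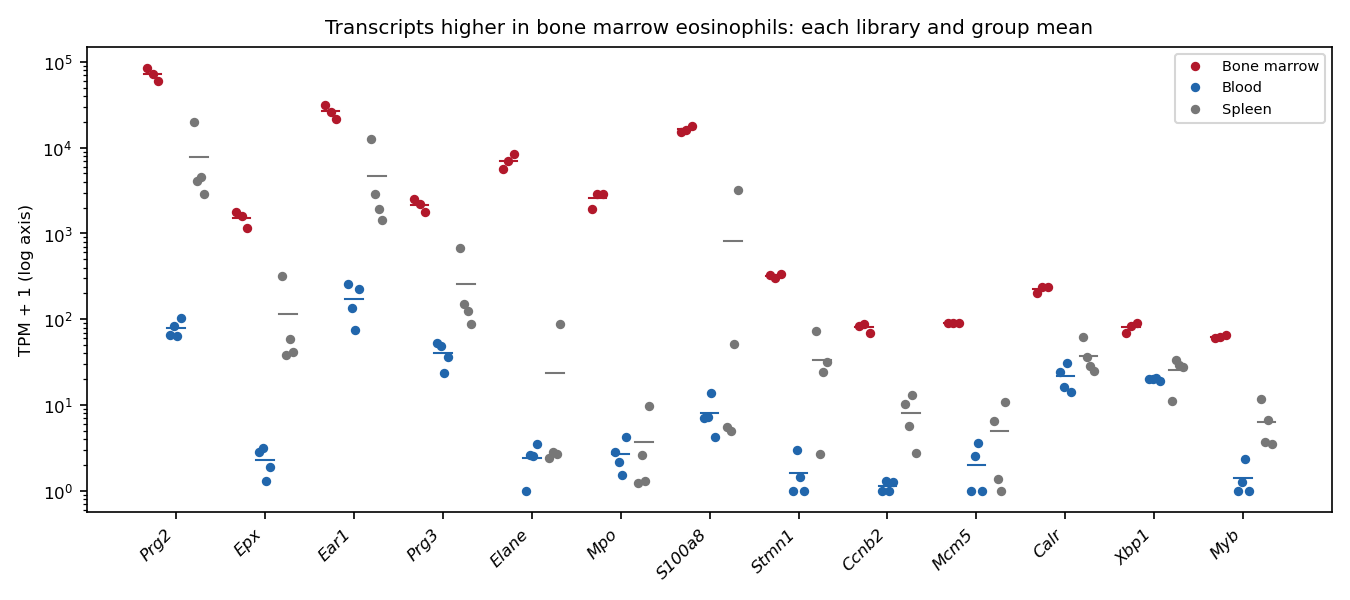
Levels of genes higher in bone marrow are shown as TPM + 1 on a log axis, with 1 point for each bone marrow (red), blood (blue) and spleen (grey) library and a bar at each group's mean. For every gene drawn, all bone marrow points lie above all blood points.

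Counts for genes that build and sort granules lay nearer to the background than those of the granule proteins. Of 37 genes of granule packaging and secretory storage, 10 were higher in bone marrow and 7 higher in blood, against backgrounds of 19.3% and 15.3%. The other 20 were not called, and the median was -0.25. Ctsg, also one of the neutrophil markers, had the largest change of the list, 10.2 ± 0.42 (adjusted p = 6.18e-15). When only the 7 libraries were fitted, 13 were higher in blood, as were 1878 of all 9806 genes. Cd63, a tetraspanin of the granule membrane, was at 2527, 2297 and 2058 TPM in bone marrow and 626, 801, 677 and 792 TPM in blood, a change of 1.61 ± 0.14 (adjusted p = 6.16e-10). Serpinb2, a protease inhibitor, changed by 3.08 ± 0.29 (adjusted p = 4.93e-09). Srgn, the serglycin core that packs basic proteins, was 0.84 ± 0.15 (adjusted p = 1.56e-04) higher in blood, at 2000.3, 2555 and 2842 TPM in bone marrow and 4341, 4189.6, 4397 and 3880.0 TPM in blood. Rab44, a large Rab GTPase of granulocytes and mast cells, was 1.05 ± 0.14 (adjusted p = 2.67e-06) higher in blood, and Hps3, a subunit of a complex for lysosome-related organelles, 1.21 ± 0.20 (adjusted p = 4.62e-05). Vamp2 and Snap23, parts of the membrane fusion machinery, were also higher in blood, by 1.13 ± 0.25 (adjusted p = 0.00167) and 0.89 ± 0.19 (adjusted p = 0.00128).

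The machinery that puts proteins into the endoplasmic reticulum was higher in bone marrow in most members. Of 68 genes of translocation, folding and glycosylation, 44 were higher in bone marrow and 2 in blood, with a median change of 0.92. Rpn1, a subunit of the oligosaccharyltransferase, was at 91.3, 102 and 81.1 TPM in bone marrow and 6.43, 8.92, 5.53 and 8.65 TPM in blood, a change of 3.42 ± 0.34 (adjusted p = 1.02e-08). Calr, the chaperone calreticulin, was at 201, 238 and 236 TPM in bone marrow and 23.6, 15.4, 30 and 13.2 TPM in blood, a change of 3.40 ± 0.27 (adjusted p = 2.59e-10). Sdf2l1 and Manf, both of the stress-responsive folding system, changed by 3.32 ± 0.37 (adjusted p = 8.31e-08) and 2.40 ± 0.34 (adjusted p = 3.01e-06). Erp29 and Ost4 were the 2 members higher in blood, by 0.62 ± 0.17 (adjusted p = 0.00976) and 0.61 ± 0.18 (adjusted p = 0.0207). Erp29 lost its call with the granule, neutrophil and erythroid lists taken out (adjusted p = 0.073). Ost4 lost its call with those lists taken out, without bone marrow 1, bone marrow 3 or blood 2, with median-ratio scaling or after quantile normalization (adjusted p = 0.0501 to 0.0989). Xbp1, the transcription factor of the secretory programme that eosinophil precursors need, was at 68.2, 81.99 and 89.9 TPM in bone marrow and 19.1, 19.1, 19.5 and 18.1 TPM in blood, a change of 1.95 ± 0.27 (adjusted p = 1.39e-06). Its blood values lay close together. Of 40 genes of transport from the endoplasmic reticulum to the Golgi, 14 were higher in bone marrow and 3 in blood, Tmed3 among the former at 2.22 ± 0.19 (adjusted p = 6.26e-10). Plasma cells use the same machinery, but of 21 listed B and plasma cell markers only 3 were in the deposited table. Of these 3, 1 was called, higher in bone marrow, and together they held at most 0.00352% of TPM in any of the 7 libraries. With most markers absent, that share cannot measure such cells, and their part was not tested.

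Haem is the cofactor of peroxidases. Of 17 tested genes of haem synthesis, transport and breakdown 8 were higher in bone marrow and 2 in blood, and without blood 1 these counts were 5 and 0. Alas1, the first and rate-limiting enzyme outside the red cell lineage, was at 159, 192 and 188 TPM in bone marrow and 40.8, 42.1, 43.5 and 47.3 TPM in blood, a change of 1.96 ± 0.27 (adjusted p = 1.85e-06). Alas2, its erythroid counterpart, was at 30.1, 12.2 and 23.7 TPM in bone marrow and 168, 82.2, 58.5 and 154 TPM in blood and was not called, though it was higher in blood when only the 7 libraries were fitted or with a pseudocount of 5 (adjusted p = 0.00235 to 0.0245). Alad, the next enzyme, was higher in bone marrow by 2.97 ± 0.73 (adjusted p = 0.00202). Hmox1, which breaks haem down and is high in macrophages that clear red cells, was at 43.3, 57.4 and 65.8 TPM in bone marrow and 1.36, 0, 0.57 and 0 TPM in blood, a change of 5.27 ± 0.53 (adjusted p = 1.84e-08). Vcam1, another gene of those macrophages, was at 62.7, 81.7 and 69.7 TPM in bone marrow and 0, 0, 0 and 0.11 TPM in blood and had the same pattern.

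**Figure D4:**
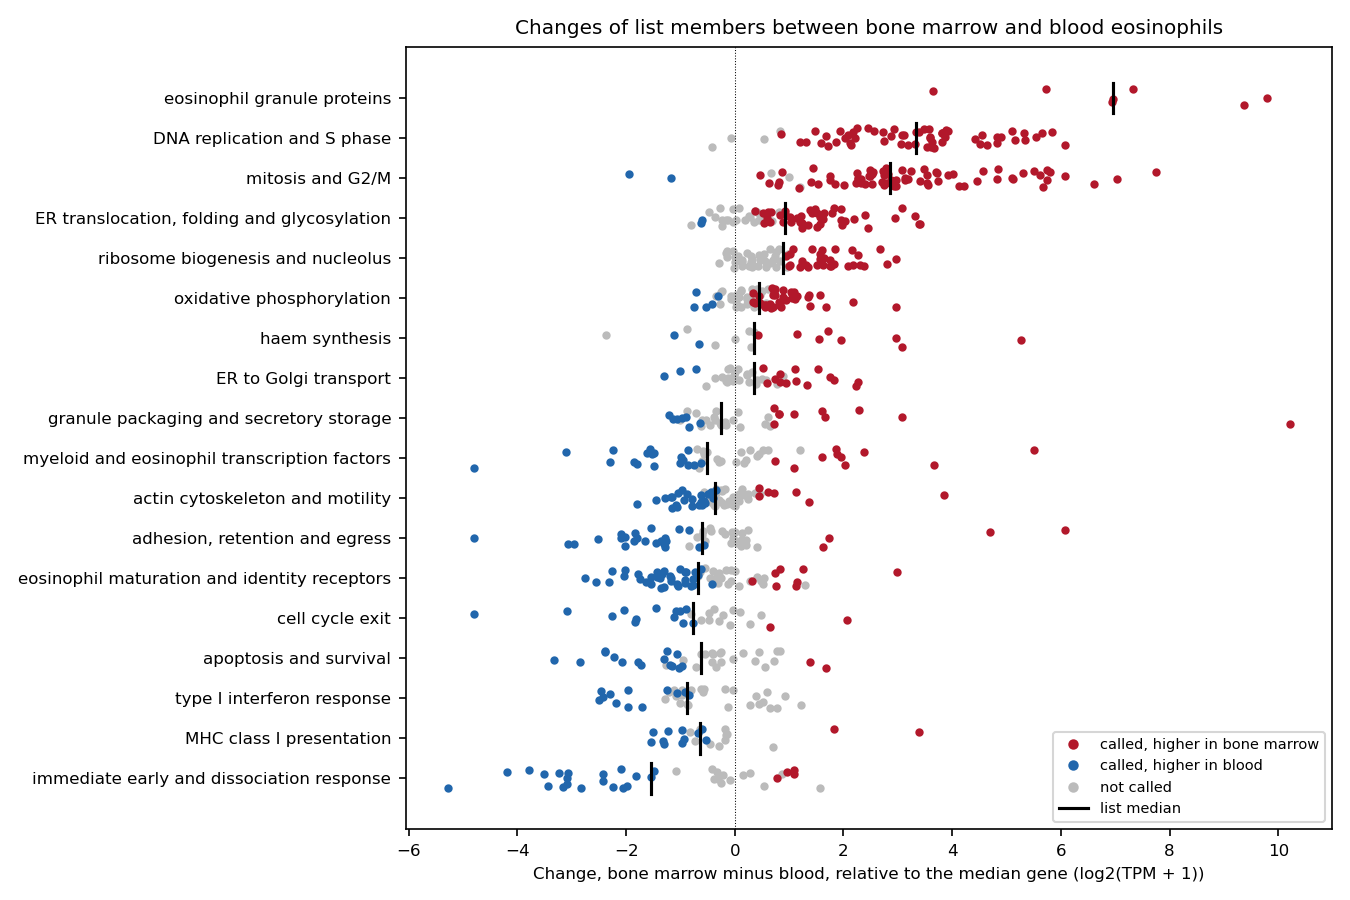
Each row is a gene list, with the change of every tested member, bone marrow minus blood relative to the median gene (log2), as a point, coloured by whether it was called and in which direction, and the list's median as a bar. Among the lists drawn the medians run from 6.96 for granule proteins and 3.33 for S phase to -1.53 for the immediate early genes.

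Transcription factors of the lineage fell into both groups. Of 47 tested, 10 were higher in bone marrow, 18 in blood and 19 were not called. Myb, a factor of proliferating progenitors, was at 58.7, 61.2 and 64.6 TPM in bone marrow and 0, 0.27, 1.35 and 0 TPM in blood, a change of 5.51 ± 0.52 (adjusted p = 5.88e-09). Gfi1, a repressor needed for granulocyte precursors, changed by 3.67 ± 0.43 (adjusted p = 1.67e-07), at 26.7, 19.9 and 23.03 TPM in bone marrow and 2.15, 0.67, 0.76 and 0.15 TPM in blood. Cebpe, which drives granule genes late in granulocyte maturation, was at 435, 419.6 and 395 TPM in bone marrow and 277, 240.3, 253 and 188 TPM in blood. Its change was 0.75 ± 0.19 (adjusted p = 0.00142), smaller than that of any granule protein gene, with no overlap between the groups. Gata1, the factor that sets the eosinophil lineage, was at 58.5, 57.4 and 56.2 TPM in bone marrow and 91.5, 96.9, 122 and 93.1 TPM in blood, which is 0.85 ± 0.23 (adjusted p = 0.00811) higher in blood. Spi1, which encodes PU.1, was higher in blood by 0.99 ± 0.22 (adjusted p = 0.00143), and Cebpa was higher in bone marrow by 2.03 ± 0.46 (adjusted p = 7.91e-04). Stat6, the signal transducer of IL-4 and IL-13, was at 41.9, 44.6 and 42.6 TPM in bone marrow and 155, 163, 126 and 144 TPM in blood, which is 1.80 ± 0.15 (adjusted p = 1.42e-09) higher in blood. Rara, the retinoic acid receptor alpha, was at 10.1, 10.96 and 10.9 TPM in bone marrow and 92.6, 123, 77.3 and 91.6 TPM in blood, a difference of 3.10 ± 0.24 (adjusted p = 3.76e-10) in favour of blood. Meis1, a homeobox factor used here among progenitor markers as well, was 2.24 ± 0.31 (adjusted p = 3.82e-06) higher in blood, at 5.58, 9.46 and 9.51 TPM in bone marrow and 35.9, 42.5, 52.7 and 30.97 TPM in blood.

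Receptors that mark mature eosinophils had more members higher in blood than in bone marrow. Of 67 tested, 36 were higher in blood, 8 in bone marrow and 23 were not called, with a median change of -0.68. Ccr3, at the values already given and a gene of chr9:124021972-124031689, was 2.01 ± 0.15 (adjusted p = 2.68e-10) higher in blood. Adgre5, the adhesion receptor CD97, was at 52.2, 77.6 and 72.5 TPM in bone marrow and 500.1, 432, 425 and 386 TPM in blood, a difference of 2.75 ± 0.17 (adjusted p = 6.47e-12) and the largest in favour of blood on this list. Ptgdr2, the prostaglandin D2 receptor CRTH2, was at 1.25, 1.79 and 2.78 TPM in bone marrow and 15.2, 20.4, 9.19 and 18.2 TPM in blood, 2.55 ± 0.42 (adjusted p = 3.71e-05) higher in blood. Il1rl1, the IL-33 receptor ST2, was at 17.3, 16.02 and 18.5 TPM in bone marrow and 38.95, 49.7, 58.8 and 35.5 TPM in blood, 1.39 ± 0.31 (adjusted p = 0.00164) higher in blood. Each of these had all 4 blood libraries above all 3 bone marrow libraries.

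Receptors for the eosinophil growth factors differed by less. Il5ra, the specific chain of the IL-5 receptor and a gene of chr6:106710357-106749037, was at 61.2, 51.2 and 53.4 TPM in bone marrow and 105, 86.2, 77.3 and 75.05 TPM in blood. It was 0.68 ± 0.22 (adjusted p = 0.0274) higher in blood, and the groups lay apart though close. Il5ra lost its call without bone marrow 2, bone marrow 3, blood 1 or blood 2 or with the granule, neutrophil and erythroid lists taken out (adjusted p = 0.0504 to 0.0977). Csf2rb, the chain shared by the receptors of IL-5, IL-3 and GM-CSF, was at 57.6, 71.7 and 50.2 TPM in bone marrow and 133, 155, 117 and 117 TPM in blood, 1.18 ± 0.17 (adjusted p = 1.03e-05) higher in blood. Csf2ra, the GM-CSF chain, was at 117, 118 and 133 TPM in bone marrow and 149.8, 124, 108 and 114 TPM in blood and was not called, and neither was Il3ra, at 9.13, 7.86 and 6.87 TPM in bone marrow and 13.8, 11.02, 8.22 and 8.80 TPM in blood. Siglecf was 0.62 ± 0.18 (adjusted p = 0.0208) higher in blood. This call was lost without bone marrow 2, bone marrow 3 or blood 1 or with the granule, neutrophil and erythroid lists taken out (adjusted p = 0.0579 to 0.0915). Adgre1, the F4/80 antigen, was 1.31 ± 0.14 (adjusted p = 1.48e-07) higher, and Pirb, an inhibitory immunoglobulin-like receptor, 1.31 ± 0.17 (adjusted p = 1.55e-06). Csf1r, which is also on the monocyte and macrophage list, was 1.75 ± 0.20 (adjusted p = 3.43e-07) higher in blood, at 18.9, 20.7 and 21.2 TPM in bone marrow and 64.99, 71.96, 66.4 and 67.5 TPM in blood.

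**Figure D5:**
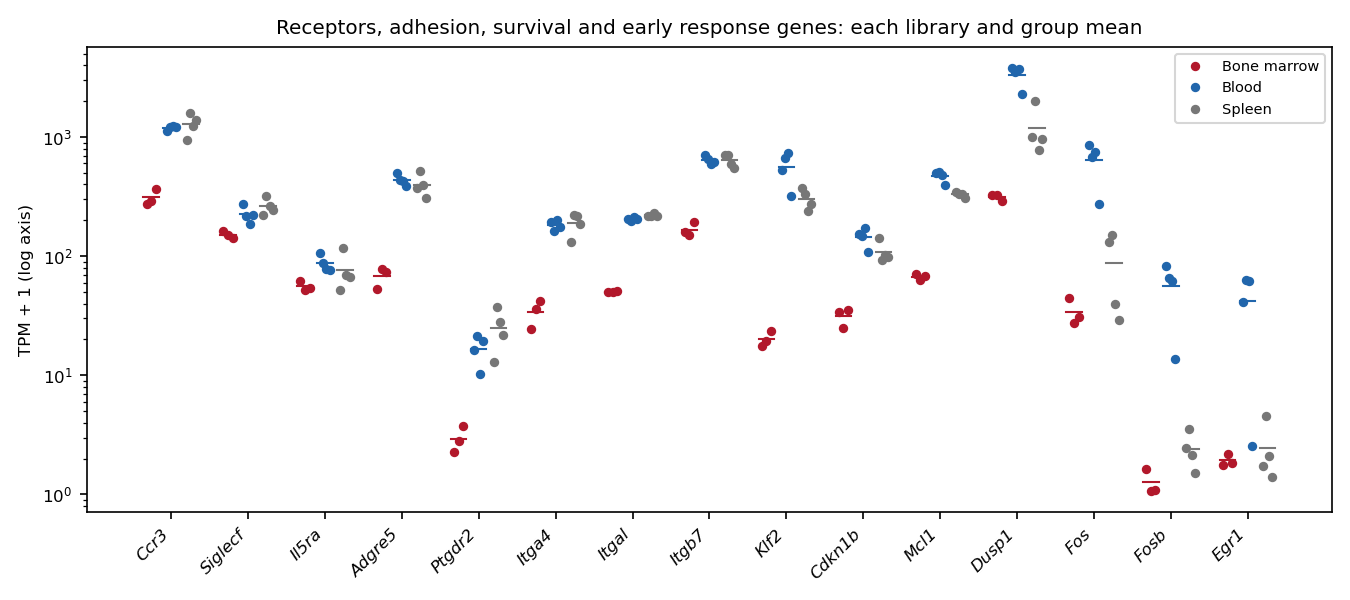
Levels of genes higher in blood are shown as TPM + 1 on a log axis, with 1 point for each bone marrow (red), blood (blue) and spleen (grey) library and a bar at each group's mean. All blood points lie above all bone marrow points for every gene drawn, and blood 4 is the lowest blood library for the immediate early genes.

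Progenitor surface genes were higher in bone marrow where they differed, with 8 of 15 called in that direction and 1 in the other. Prom1, the antigen CD133, was at 28.6, 22.8 and 26.3 TPM in bone marrow and 0, 0, 0 and 0.44 TPM in blood, a change of 4.55 ± 0.42 (adjusted p = 4.04e-09). Csf3r, the G-CSF receptor of the neutrophil lineage, was at 14.9, 16.2 and 20.5 TPM in bone marrow and 0.18, 1.86, 4.45 and 0.22 TPM in blood, a change of 2.99 ± 0.52 (adjusted p = 4.14e-05). Tfrc, the transferrin receptor of iron-hungry dividing cells, changed by 2.83 ± 0.46 (adjusted p = 1.84e-05). Kit and Cd34, which define early progenitors, were at 13.7, 17.4 and 16.6 TPM in bone marrow and 11.8, 10.9, 3.65 and 5.92 TPM in blood and at 10.02, 10.8 and 1.17 TPM in bone marrow and 2.85, 1.09, 3.96 and 1.57 TPM in blood, respectively, and neither was called. Cd34 was low in bone marrow 3, and was called higher in bone marrow without bone marrow 3 (adjusted p = 0.00345). Notch1 was the member higher in blood, by 1.64 ± 0.29 (adjusted p = 1.23e-04). Csf3r moved with the neutrophil markers, whose part in these counts was not tested.

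Genes of adhesion, retention and egress also had more members higher in blood, with 23 of 49 called in that direction, 4 in the other and a median change of -0.60. Several integrin chains were among them. Itga4, the α4 chain of VLA-4, which binds VCAM-1 of marrow stroma and vessel walls, was at 23.5, 35.2 and 40.7 TPM in bone marrow and 192, 161, 201 and 173 TPM in blood, 2.51 ± 0.21 (adjusted p = 1.64e-09) higher in blood. Itgal, the α chain of LFA-1, was at 48.6, 48.8 and 49.8 TPM in bone marrow and 203, 198, 213 and 205 TPM in blood, 2.1 ± 0.16 (adjusted p = 3.76e-10) higher in blood, with a narrow range in both groups. Itgb7, partner of α4 in gut homing, was 2.01 ± 0.25 (adjusted p = 6.91e-07) higher. Itgb2, the β2 chain shared by LFA-1 and Mac-1, was at 276, 296 and 282 TPM in bone marrow and 304, 279.9, 245 and 257 TPM in blood and was not called, and its partner Itgam was 0.85 ± 0.13 (adjusted p = 1.96e-05) higher. Selplg, the selectin ligand PSGL-1, was at 238, 213 and 244 TPM in bone marrow and 731, 852, 803 and 711 TPM in blood, 1.80 ± 0.18 (adjusted p = 2.08e-08) higher in blood.

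Cxcr4, whose ligand CXCL12 holds granulocytes in the marrow, was at 36.6, 41.3 and 26.3 TPM in bone marrow and 81.6, 95.5, 83.8 and 66.3 TPM in blood. It was 1.28 ± 0.44 (adjusted p = 0.0327) higher in blood, and the lowest blood library lay above the highest from bone marrow. Cxcr4 lost its call without bone marrow 1, bone marrow 2, bone marrow 3, blood 1, blood 2 or blood 3 or with the granule, neutrophil and erythroid lists taken out (adjusted p = 0.0501 to 0.133), and without blood 4 it kept it. Cxcr2, one of the neutrophil markers, was higher in bone marrow, at 2.21, 1.88 and 4.80 TPM in bone marrow and 0.18, 0.43, 0.14 and 0 TPM in blood, and lost its call without bone marrow 1, bone marrow 3, blood 1, blood 3 or blood 4, with a pseudocount of 5 or after quantile normalization (adjusted p = 0.0514 to 0.213). S1pr4, a sphingosine 1-phosphate receptor, was at 58.6, 63.6 and 57.2 TPM in bone marrow and 100.1, 118, 96.4 and 101 TPM in blood and missed the threshold (adjusted p = 0.0762), which it passed when only the 7 libraries were fitted or with a pseudocount of 5 (adjusted p = 5.78e-04 to 0.00632). Mmp9, a gelatinase and also one of the neutrophil markers, was at 141, 153 and 179 TPM in bone marrow and 503, 598, 632 and 452 TPM in blood, 1.84 ± 0.15 (adjusted p = 9.48e-10) higher in blood. Rgs1 and Rgs2, which shorten signalling from chemokine and other receptors, were 3.06 ± 0.43 (adjusted p = 4.43e-06) and 1.85 ± 0.28 (adjusted p = 1.87e-05) higher in blood.

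Among 62 genes of the actin cytoskeleton, 24 were higher in blood and 7 in bone marrow. S100a10, the partner of annexin A2 at the membrane, was at 521, 504 and 509 TPM in bone marrow and 1766, 1743, 1624 and 1728 TPM in blood, 1.80 ± 0.15 (adjusted p = 9.29e-10) higher in blood. Anxa2 itself was higher in bone marrow by 1.37 ± 0.25 (adjusted p = 7.52e-05), at 402, 355 and 366 TPM in bone marrow and 158, 157, 139 and 105 TPM in blood. Actb, β-actin, was 1.08 ± 0.14 (adjusted p = 2.52e-06) higher in blood, and Ezr, which links actin to the membrane, 1.18 ± 0.17 (adjusted p = 1.26e-05). Anxa3 was higher in bone marrow by 3.84 ± 0.50 (adjusted p = 8.67e-07) and is one of the neutrophil markers.

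Genes of apoptosis and survival were higher in blood in 15 of 37, and in bone marrow in 2. Mcl1, the short-lived survival protein on which granulocytes depend, was at 69.4, 62.5 and 67.2 TPM in bone marrow and 494, 513, 476 and 392 TPM in blood. That is 2.86 ± 0.14 (adjusted p = 2.26e-13) higher in blood, with the 4 blood libraries close together and far above bone marrow. Death-promoting members were higher in blood too. Pmaip1, the BH3 protein NOXA that binds MCL1, was at 7.40, 8.54 and 15.3 TPM in bone marrow and 100.2, 117, 131 and 75.8 TPM in blood, 3.32 ± 0.23 (adjusted p = 4.95e-11) higher in blood, and Bbc3, PUMA, 2.07 ± 0.40 (adjusted p = 2.60e-04). Bcl2a1b, a survival protein of granulocytes with near-identical copies, was 2.39 ± 0.36 (adjusted p = 1.12e-05) higher. Bcl2 and Bcl2l2, both survival proteins, were the members higher in bone marrow, at 2.19, 3.04 and 2.62 TPM in bone marrow and 0.8, 0.15, 0.06 and 0.42 TPM in blood for Bcl2 and 3.51, 1.83 and 1.94 TPM in bone marrow for Bcl2l2, which was listed at 0 in all 4 blood libraries. Bcl2 lost its call after quantile normalization (adjusted p = 0.162). Bax and Bak1, the pore formers, were not called.

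Immediate early genes, which respond within minutes to growth factors and also to the handling of cells, were higher in blood. Of 37 tested, 20 were higher in blood, 4 in bone marrow and 13 were not called, with a median change of -1.53. Their share was 0.249%, 0.239% and 0.226% in bone marrow and 1.02%, 1.01%, 0.999% and 0.598% in blood, with blood 4 well below the other 3 blood libraries. Fos, a partner in the AP-1 factor, was at 43.4, 26.6 and 29.8 TPM in bone marrow and 861, 676, 743 and 273 TPM in blood, 4.19 ± 0.44 (adjusted p = 4.91e-08) higher in blood. Fosb was at 0.64, 0.07 and 0.09 TPM in bone marrow and 82.1, 64.1, 60.7 and 12.7 TPM in blood, and its difference of 5.28 ± 0.51 (adjusted p = 1.41e-08) was the largest of all genes higher in blood. Egr1 was at 0.78, 1.20 and 0.83 TPM in bone marrow and 40.4, 62.02, 61.2 and 1.55 TPM in blood, 3.78 ± 0.73 (adjusted p = 2.67e-04) higher in blood, with blood 4 just above the highest bone marrow library. Dusp1, a phosphatase that ends MAP kinase signals, was at 327, 323 and 291 TPM in bone marrow and 3789.8, 3534, 3729.9 and 2315 TPM in blood, 3.44 ± 0.23 (adjusted p = 3.51e-11) higher in blood. Leaving out any 1 of the 7 libraries kept the count higher in blood at 20, with medians of -1.72 to -1.42. The count higher in bone marrow then ranged from 0 without bone marrow 2 to 4 without blood 2, and was 1 without blood 3 or blood 4, 2 without bone marrow 1 or blood 1, and 3 without bone marrow 3. Members of the same list that code for chaperones went the other way or were not called: Hspa8 was higher in bone marrow by 0.77 ± 0.28 (adjusted p = 0.0247) and lost this call without bone marrow 1, bone marrow 2, blood 3 or blood 4 or after quantile normalization (adjusted p = 0.0503 to 0.0772), and Hspa1a was at 1.90, 0.8 and 0 TPM in bone marrow and 0, 0.15, 0 and 0.53 TPM in blood and was not called. How the cells were handled in each tissue is not given in the sources used here, and its part was not tested.

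Other signalling genes followed. Of 35 genes of the NF-κB pathway and its targets, 12 were higher in blood and 1 in bone marrow. Ccl6, a chemokine and one of the most abundant transcripts of both tissues, was at 5034, 5019 and 6291 TPM in bone marrow and 23827, 24597, 23845 and 22467 TPM in blood, 2.19 ± 0.14 (adjusted p = 2.35e-11) higher in blood. Tnfaip3, the A20 brake on NF-κB, was 2.01 ± 0.33 (adjusted p = 4.10e-05) higher, with blood 4 the lowest blood library. Tnf was the member higher in bone marrow, by 1.17 ± 0.46 (adjusted p = 0.0395), a call lost without bone marrow 1, bone marrow 3, blood 1 or blood 2, with a pseudocount of 0.1, with a pseudocount of 5 or after quantile normalization (adjusted p = 0.0864 to 0.14). Il4, a cytokine stored by eosinophils and basophils, was at 124, 137 and 165 TPM in bone marrow and 400.3, 409, 440.1 and 386 TPM in blood, 1.59 ± 0.18 (adjusted p = 1.67e-07) higher in blood, while Mcpt8 was listed at 0 in those libraries. Of 37 type I interferon genes, 12 were higher in blood, 21 after quantile normalization, and by limma 0 in bone marrow, where 2 had an unadjusted p under 0.05. Isg15 was at 5.85, 8.12 and 6.29 TPM in bone marrow and 40, 37.1, 29.8 and 50.6 TPM in blood, 2.43 ± 0.44 (adjusted p = 1.42e-04) higher, and Rsad2, viperin, at 7.41, 5.41 and 5.30 TPM in bone marrow and 32.03, 38.6, 17.5 and 75.1 TPM in blood, 2.46 ± 0.61 (adjusted p = 0.00308) higher. Of 23 genes of MHC class I presentation, 11 were higher in blood, among them the heavy chain H2-D1 by 1.51 ± 0.14 (adjusted p = 7.39e-09) and B2m by 0.93 ± 0.13 (adjusted p = 7.12e-06). The count higher in blood was 7 without bone marrow 1 and 7 with the granule, neutrophil and erythroid lists taken out. The 2 higher in bone marrow, Calr and Pdia3, are chaperones of the endoplasmic reticulum that load class I molecules.

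Ribosome biogenesis and oxidative phosphorylation had more members higher in bone marrow than in blood. Of 66 genes of ribosome biogenesis, 31 were higher in bone marrow, 0 in blood and 35 were not called by limma, and at an unadjusted p under 0.05 0 were higher in blood. Nop58, a core protein of the particles that modify ribosomal RNA, was at 51.3, 76.7 and 91.2 TPM in bone marrow and 15.2, 15.9, 7.42 and 23.3 TPM in blood, a change of 2.17 ± 0.28 (adjusted p = 7.54e-07). Of 76 genes of oxidative phosphorylation 37 were higher in bone marrow and 5 in blood. Ndufa12, of complex I, was at 112, 114 and 106 TPM in bone marrow and 6.41, 14.5, 24.8 and 10.8 TPM in blood, a change of 2.97 ± 0.31 (adjusted p = 2.31e-08). Of 29 glycolysis genes 11 were higher in bone marrow and 6 in blood. Gapdh was higher in bone marrow by 1.31 ± 0.20 (adjusted p = 6.19e-06), while Slc2a1 and Hk2, which bring glucose in and trap it, were higher in blood by 1.60 ± 0.33 (adjusted p = 6.71e-04) and 1.39 ± 0.29 (adjusted p = 7.79e-04). Of 45 genes of the lysosome and autophagy 9 were higher in bone marrow and 13 in blood, where Map1lc3b, a marker of autophagosomes, was 1.52 ± 0.17 (adjusted p = 1.44e-07) higher.

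Lipid mediator genes differed by enzyme, with 6 of 16 higher in bone marrow and 5 in blood. Alox15, the 12/15-lipoxygenase of eosinophils, was at 1852, 1512 and 1579.9 TPM in bone marrow and 722, 875, 723 and 591 TPM in blood, a change of 1.13 ± 0.16 (adjusted p = 1.61e-06). Alox5 and Alox5ap, which together start leukotriene synthesis, were higher in blood by 0.60 ± 0.16 (adjusted p = 0.00871) and 1.17 ± 0.11 (adjusted p = 1.41e-08). Lta4h, which makes leukotriene B4, was higher in bone marrow by 1.31 ± 0.14 (adjusted p = 2.34e-08). Pla2g7, which breaks down platelet activating factor, was at 127, 148 and 203 TPM in bone marrow and 767, 755, 839.6 and 817 TPM in blood, 2.40 ± 0.16 (adjusted p = 4.23e-11) higher in blood. Among 26 genes of the NADPH oxidase and peroxide handling, 10 were higher in bone marrow and 6 in blood. Of subunits of the oxidase itself, Ncf4 was higher in bone marrow by 1.58 ± 0.28 (adjusted p = 4.32e-05), while Cyba and Ncf1 were not called. Cyba was called higher in blood when only the 7 libraries were fitted or after quantile normalization (adjusted p = 0.0145 to 0.0424). Gstm1, a glutathione transferase, was at 256, 342 and 411 TPM in bone marrow and 14.1, 9.36, 12.1 and 10.2 TPM in blood, a change of 4.69 ± 0.39 (adjusted p = 7.84e-10).

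Among the largest called changes without overlap, taken without regard to the lists, those higher in bone marrow were mostly of neutrophil markers. The 20 largest were Elane, Camp, S100a8, Ctsg, Mpo, Prtn3, Prg2, S100a9, Wfdc21, Epx, Fcnb, Ngp, Ms4a3, Lcn2, Nkg7, Chil3, Ifitm6, Hp, Stmn1 and Ear1. Of these, 14 are on the neutrophil list and 3 on the granule protein list. Mpo, myeloperoxidase, at chr11:87793581-87804413, lies near Epx and was at 1912, 2906 and 2908 TPM in bone marrow and 1.84, 1.17, 0.53 and 3.24 TPM in blood, a change of 9.91 ± 0.59 (adjusted p = 2.05e-12). Prtn3, proteinase 3, at chr10:79874476-79883174 beside Elane, was at 1217, 1784 and 2046 TPM in bone marrow and 1.72, 0, 0.69 and 0.7 TPM in blood. S100a8, a calcium-binding protein of neutrophils and monocytes, was at 15202, 16250.1 and 17941 TPM in bone marrow and 6.07, 6.31, 12.9 and 3.23 TPM in blood, a change of 11.05 ± 1.41 (adjusted p = 7.18e-07). Among the 20 largest differences in favour of blood were those of Fosb, Klf2, Fos, Arl4c, Egr1, Ahnak, Ppp1r15a, Plk2, Dusp1, Metrnl, Enkur, Pmaip1, Lmna, Ier5, Jund, Slc8a1, Tuba1a, Rara and Junb, and 8 of the 20 are on the immediate early list. Ahnak, a giant scaffold protein, was at 1.02, 3.48 and 4.58 TPM in bone marrow and 50.6, 41.9, 39.2 and 34.2 TPM in blood, 3.57 ± 0.37 (adjusted p = 5.02e-08) higher in blood. Lmna, lamin A of the nuclear envelope, was at 3.18, 3.35 and 3.15 TPM in bone marrow and 42.5, 36.1, 35.3 and 36.7 TPM in blood, 3.25 ± 0.22 (adjusted p = 4.43e-11) higher in blood.

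Spleen, a blood-filtering lymphoid organ, is set beside both. The 3 comparisons share libraries, so only their own values are given. Between blood and spleen 1.09% of genes were called, against 31.1% between bone marrow and spleen. All 7 granule protein genes were higher in bone marrow than in spleen, against a background of 15.1% in that direction. Of the same 7, 6 were higher in spleen than in blood, against 0.857%. Prg2 was at 19974, 4039.7, 4539 and 2911 TPM in spleen libraries 1 to 4, so spleen 1 had several times the level of the other 3. Elane was at 1.41, 1.82, 1.72 and 86.9 TPM there, Stmn1 at 72.8, 1.68, 23.4 and 30.7 TPM and S100a8 at 4.55, 4.04, 50.03 and 3242 TPM. Spleen 1 therefore had the most Prg2, while spleen 4 had the most Elane and S100a8 and the least Prg2. Elane was near the bottom of the scale in spleen 1 to 3, too low to rank them. Ngp, another neutrophil marker, was at 922, 381, 357 and 819 TPM in spleen libraries 1 to 4, and so was highest in spleen 1. Of the S phase genes 57 were higher in bone marrow than in spleen and 10 higher in spleen than in blood, and of the mitosis genes 67 and 5. Of the receptors, 36 were higher in spleen than in bone marrow, against a background of 16%. Of the immediate early genes 9 were higher in blood than in spleen, against 0.235%, and 14 higher in spleen than in bone marrow.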

How the data were processed

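The values are TPM per gene, transcripts scaled to a common total in each library, that the authors deposited as 1 table of 24 tissue libraries. Reads were trimmed with cutadapt 2.10, aligned with STAR 2.7.5c and quantified with RSEM 1.3.3 on mm10, per the submitters' processing notes. The filter that left 9844 genes is not given in the sources used here, nor is the annotation.

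The 9806 genes with at least 1 TPM in at least 3 libraries were tested on log2(TPM + 1). A linear model with tissue as its term was fitted to all 24 libraries of 7 tissues (17 residual degrees of freedom) with limma 3.58.1 in R 4.3.3 (lmFit, contrasts and eBayes with a trend), and p-values were adjusted by Benjamini-Hochberg over all tested genes. The code was tested on simulated data. Shares of TPM and the number of detected genes were compared by exact permutation in SciPy 1.17.1.

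Named are the 20 largest changes in each direction among called genes whose higher group averaged 10 TPM or more and whose groups did not overlap, and listed genes, with the largest called and the most abundant first. Gene models with Gm or Rik names, ribosomal protein genes and immunoglobulin segments were left out of the 20. A few genes that this rule names are not reported here. The comparison and the gene lists were chosen with earlier results of these data known. Listed symbols were matched as deposited, 15 of them through a synonym. The table of sorted small intestine eosinophils and the single-cell sample were not used here. Alternatives were a fit of the 7 libraries alone, a block for the replicate number, pseudocounts of 0.1 and 5, other filters, 3 other scalings, robust eBayes and leaving out each library.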

Additional observations from a re-analysis of the deposited data

Results flagged for a closer look

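Within the 4 blood libraries, a library was set apart where its gap to the nearest of the others took up most of the group's range (Dixon's test at 95%). Of 185 values tested, 17 were, and chance gives about 1 in 20. Blood 4 was the odd one in 11 of them and the low one in 8. It held 0.598% of TPM in immediate early genes, against 0.999 to 1.02% in the other 3 blood libraries. Among single genes, blood 4 was low for Fosb at 12.7 TPM, Egr1 at 1.55 TPM, Dusp1 at 2315 TPM, Ier5 at 62.7 TPM, Jund at 25.1 TPM and Plk2, a stress-responsive kinase, at 20.6 TPM. The other 3 libraries lay at 60.7 to 82.1, 40.4 to 62.0, 3534 to 3790, 88.8 to 93.2, 55.1 to 58.1 and 28.6 to 30.3 TPM for these genes. Blood 4 was also low for Pirb, at 159.6 TPM against 204 to 207, and high for Lta4h, at 287 TPM against 208 to 216.

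The remaining values belong to genes that are near 0 in blood, where a single library held the transcript. Ctsg was at 1.29 TPM in blood 2, Ms4a3 at 0.52 TPM in blood 3, Nkg7 at 3.85 TPM in blood 1, Asf1b at 0.25 TPM in blood 3, Prom1 at 0.44 TPM and Vcam1 at 0.11 TPM in blood 4, and the other 3 libraries were listed at 0 in each case. Chil3, a chitinase-like protein, was at 4.94 TPM in blood 2 against 0 to 0.28 TPM, and Cdk1 at 6.93 TPM in blood 2 against 0 to 0.09 TPM.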

How the results depend on the processing

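Under the 17 alternatives, no count of called genes or of called members of the S phase, mitosis, granule protein, endoplasmic reticulum or receptor lists moved by more than 1.5 times. The direction of the 179 named genes was checked only where a gene was called in the main fit or in the alternative. Among these only Tmsb4x changed direction, from -0.40 to 0.25 (log2, bone marrow minus blood) after quantile normalization. Genes higher in bone marrow numbered 1896, and 2256 when only the 7 libraries were fitted, 1618 with a filter at 5 TPM, 1682 with a pseudocount of 0.1, 2099 with median-ratio scaling, 1735 with quantile normalization and 2252 with the granule, neutrophil and erythroid lists taken out. Genes higher in blood numbered 1497, and 1878, 1480, 1424, 1347, 2204 and 1200 under the same settings. Leaving out 1 library at a time gave 1478 to 1767 genes higher in bone marrow and 1172 to 1384 higher in blood, 57 to 59 called S phase members, 70 to 73 mitosis members, 7 granule protein members, 40 to 44 endoplasmic reticulum members and 37 to 40 receptors. With the granule, neutrophil and erythroid lists taken out the granule protein list has no value, because its genes are among those removed.

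The labels do not say whether the replicate numbers pair libraries of the 2 tissues. Same-numbered libraries correlated in their deviations from the group means at 0.027, -0.009 and 0.003, and the other pairs at -0.023 to 0.011. Values this close to 0 cannot decide whether same-numbered libraries share animals. With the replicate number as a block, 1835 genes were higher in bone marrow and 1441 in blood, with 59 called S phase members, 74 of mitosis, 7 of granule proteins, 45 of the endoplasmic reticulum and 41 receptors. Of the named genes, Cxcr4 and Tnf lost their call under the block (limma, adjusted p = 0.0564 and 0.0701) and S1pr4 gained one (adjusted p = 0.0373).

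Of 160 called named genes, 12 lost the call under at least 1 alternative. Members higher in blood on 3 metabolic lists were few and varied with the setting: 2 to 7 for glycolysis, 2 to 6 for oxidative phosphorylation and 3 to 7 for the NADPH oxidase list. Depth is unknown, so genes at a few TPM carry an error that cannot be stated.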

Other observations

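The genes with the highest mean TPM differed between the tissues. In bone marrow they were Prg2, Ear1, Retnlg, Ear2, Ear6, S100a8, S100a9, Elane, Tmsb4x and Ccl6, and in blood Retnlg, Hbb-bs, Hba-a2, Ccl6, Hba-a1, Rps27, Fau, Hbb-bt, Actb and Rps27a. Retnlg, a resistin-like protein of granulocytes and one of the neutrophil markers, was in both, at 17833, 16051 and 19450.0 TPM in bone marrow and 59405, 60865, 58499.6 and 65464 TPM in blood, and was 1.84 ± 0.20 (adjusted p = 1.24e-07) higher in blood. Hba-a1 and Hba-a2 are 99.8% identical in their longest transcripts, so their split is uncertain.

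Of 8 tested megakaryocyte and platelet markers 4 were higher in blood and 1 in bone marrow. Pf4, platelet factor 4, was at 3.73, 19.3 and 15.5 TPM in bone marrow and 69.9, 92.3, 40.2 and 38.3 TPM in blood, 2.36 ± 0.66 (adjusted p = 0.00801) higher in blood, a call lost without bone marrow 1 or with a pseudocount of 0.1 (adjusted p = 0.0533 to 0.0875). Without bone marrow 1 the markers higher in blood numbered 2. Hdc, the histidine decarboxylase of basophils and other granulocytes, was at 66.3, 81.5 and 68.8 TPM in bone marrow and 9.97, 6.82, 10.7 and 3.13 TPM in blood, a change of 3.13 ± 0.25 (adjusted p = 3.85e-10). Nkg7, a granule membrane protein of killer cells, was at 594, 724 and 755 TPM in bone marrow and 3.85, 0, 0 and 0 TPM in blood, a change of 8.80 ± 0.75 (adjusted p = 1.25e-09). Of 24 listed markers of T, NK and innate lymphoid cells, only 2 were in the deposited table. The other, Ccl5, was listed at 0 in all libraries of both tissues. Nkg7 alone cannot measure such cells, and their part was not tested.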
